A study of Homo sapiens with 8 samples.

Results

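The nuclear genome encodes most subunits of the mitochondrial respiratory chain and of ATP synthase, and 86 protein-coding rows of the expression tables were taken as these genes by their names. The names begin with NDUFA, NDUFB, NDUFC, NDUFS or NDUFV and a number, with UQCR or with ATP5, or are SDHA to SDHD or a COX4 to COX8 gene. Of 60558 rows per library, 199 matched, and 110 of those were pseudogenes, which were left out with the other rows that are not protein-coding. The 86 genes fell into complex I (37 genes), complex II (4), complex III (9), complex IV (16) and complex V (20). NDUFA4 and NDUFA4L2 were counted with complex IV, where the NDUFA4 protein resides. The rows NDUFC2-KCTD14 and ATP5MF-PTCD1 are readthrough genes that join a subunit gene to its neighbour, and ATP5IF1 encodes an inhibitor of ATP synthase, not a subunit. The name rule does not reach NDUFAB1, COX4I1, COX4I2, COX7A2L, CYC1 and CYCS, which are described separately.

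RNA-seq covered human intestinal epithelial cells (hIECs) in 2D culture, derived from the embryonic stem cell line H9, in 4 groups of 2 libraries. Normal hIECs received neither treatment, and normal hIECs with PM10 received coarse particulate matter. Inflamed hIECs received the cytokines IFNγ and TNFα, and inflamed hIECs with PM10 received both. By the study's methods the cytokines were given at 50 ng/ml each for 10 days and PM10 at 100 μg/ml for the last 7 days, and the sample labels give 10 days for all groups. All cells came from 1 line, and nothing in the labels says that 2 libraries of a group came from separate cultures, so p-values measure the spread between these libraries, which may be technical. The values are FPKM (fragments scaled by transcript length and by the mapped fragments of the library), so read depth is unknown and its effect on precision cannot be stated.

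The cells were checked against markers. Of 13 epithelial markers, 6 (CDX2, VIL1, MUC2, LYZ, CHGA and KRT20) were listed at 0 in all 8 libraries, CDH1 stayed at or below 0.221 FPKM and EPCAM at or below 0.622, and all 10 mesenchymal markers were expressed. The other 5 epithelial markers were tested, KRT8 and KRT18 at 185 to 383 and 100.1 to 266 FPKM, SOX9 at 3.66 to 14.97, LGR5 at 2.01 to 8.28 and KRT19 at 0.798 to 2.197. Thus CDX2, VIL1, CDH1 and EPCAM, which define intestinal epithelium, were at or near 0. LGR5 and SOX9, known from its stem and progenitor cells, were detected, which alone does not show that such cells were present. The 13 epithelial markers summed to 299 to 667 FPKM per library and the 10 mesenchymal markers to 3726 to 4475. The paper, by contrast, reports CDX2, VIL1, MUC2, LYZ and CHGA in its 2D hIECs by mRNA measurement and immunostaining. All 8 genes of a cytokine response list, CXCL10 and IDO1 among them, rose in both comparisons of cytokines against none. Normal replicate 2 stood apart in mitochondrial DNA-encoded RNA, which took 24.2% of its summed FPKM against 17.02% in normal replicate 1 and 15.5% to 20.4% in the other 6 libraries.

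The respiratory chain passes electrons from NADH and succinate to oxygen. Complex I oxidizes NADH and complex II oxidizes succinate, both pass electrons to ubiquinone, complex III passes them on to cytochrome c, and complex IV reduces oxygen. Complexes I, III and IV pump protons across the inner membrane, and complex V, the ATP synthase, uses the return of the protons to make ATP. Complex II is built from nuclear genes alone, and the other complexes also hold subunits encoded by mitochondrial DNA. Enterocytes depend on this ATP for the sodium gradient that drives nutrient uptake.

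Of the 86 genes, 79 reached 1 FPKM in at least 2 libraries and were tested, and 76 of them were above 5 FPKM in every library. The rows COX7A1, COX7B2, COX8C and ATP5MGL were listed at 0 in all 8 libraries, and COX6A2, COX6B2 and UQCRHL were above 0 without reaching the minimum. Over the genes tested, the median of the mean FPKM was 52.3 in complex I, 31.1 in complex II, 67.7 in complex III, 143 in complex IV and 104 in complex V. The genes with the highest mean FPKM were NDUFS5 (254) in complex I, SDHB (39.3) in complex II, UQCRH (190.2) in complex III, COX7C (259) in complex IV and ATP5ME (221) in complex V.

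The 86 genes summed to 7395 and 7365 FPKM in normal hIECs, 7037 and 7073 in normal hIECs with PM10, 6364 and 6335 in inflamed hIECs, and 5901 and 5899 in inflamed hIECs with PM10. The 4 groups did not overlap, and both groups with cytokines lay below both without. Relative to normal hIECs the mean sum was 86.04% with cytokines, 79.9% with both treatments and 95.6% with PM10 alone. Complex I was at 82.0% with cytokines and 76.1% with both, complex III at 86.8% and 82.3%, complex IV at 84.9% and 76.3%, and complex V at 90.6% and 85.3%. Complex II lay on the other side, at 108% and 109.8%, and at 103.5% with PM10 alone. Its normal libraries stood at 103.4% and 96.6% and its inflamed libraries at 110.1% and 105.9%, so this distance was near the spread between replicates. Since mitochondrial DNA-encoded RNA moves every other FPKM, the share of the 86 genes was also taken without it, and was 2.07% in both normal libraries, 2.03% and 2.04% with PM10, 1.84% and 1.82% in inflamed hIECs, and 1.73% and 1.74% in inflamed hIECs with PM10. In bulk RNA, fewer cells of a type and less RNA per cell cannot be told apart.

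**Figure D1:**
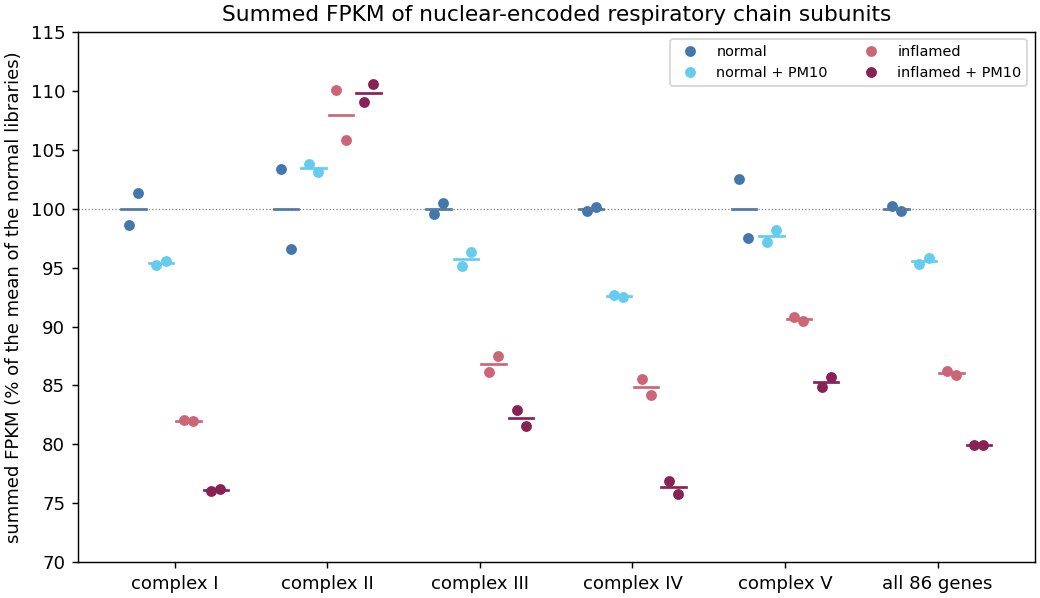
Summed FPKM of the nuclear-encoded subunits of complexes I to V and of all 86 genes in each of the 8 libraries, as a percentage of the mean of the 2 normal libraries (vertical axis). Points are libraries and short bars are means of 2; complexes I, III, IV and V are lowest with both treatments (76.1%, 82.3%, 76.3% and 85.3%), and complex II is at 108% and 109.8% in the groups with cytokines.

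The effect of the cytokines was measured in 2 pairs of groups that share no library, namely cytokines against none without PM10, and the same in the presence of PM10. Both pairs were tested in the same fit with a spread estimated over all 8 libraries, so their calls are not independent. In complexes I, III, IV and V more subunit genes fell than rose in either pair, by small amounts, and in complex II none was called. Without PM10, 38 of 79 genes (48.1%) fell and 3 (3.80%) rose in limma at an adjusted p below 0.05, where 30.3% of all 14206 genes tested fell and 25.9% rose. The 38 include NDUFA4L2, which reached 1 FPKM only in libraries without cytokines. With PM10, 51 of 79 (64.6%) fell and 4 (5.06%) rose, against 39.6% and 25.8% of all genes tested. The median log2 fold change of the 79 genes, on the scale of log2(FPKM + 1), was -0.20 without PM10 and -0.27 with PM10, and that of all genes tested was -0.03 and -0.11. Without normal replicate 2, which stood apart, 41 of the 79 genes fell and 2 rose in the first pair.

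In both pairs, 35 of the 79 genes (44.3%) fell, against 27.4% of all genes tested, and NDUFB3 and NDUFS1 rose (2.53% against 20.9%). All 4 libraries with cytokines lay below all 4 without for 42 genes (53.2%, against 33.1% of all genes tested) and above them for ATP5F1B, NDUFB3, NDUFS1 and SDHB (5.06% against 24.4%). The changes were small. No subunit gene passed a 2-fold change with the cytokines without PM10, where 4.12% of all genes tested were at least 2-fold higher and 5.27% lower. With PM10 the readthrough row NDUFC2-KCTD14 was more than 2-fold lower and none was higher, against 7.72% and 5.32% of all genes tested.

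**Figure D2:**
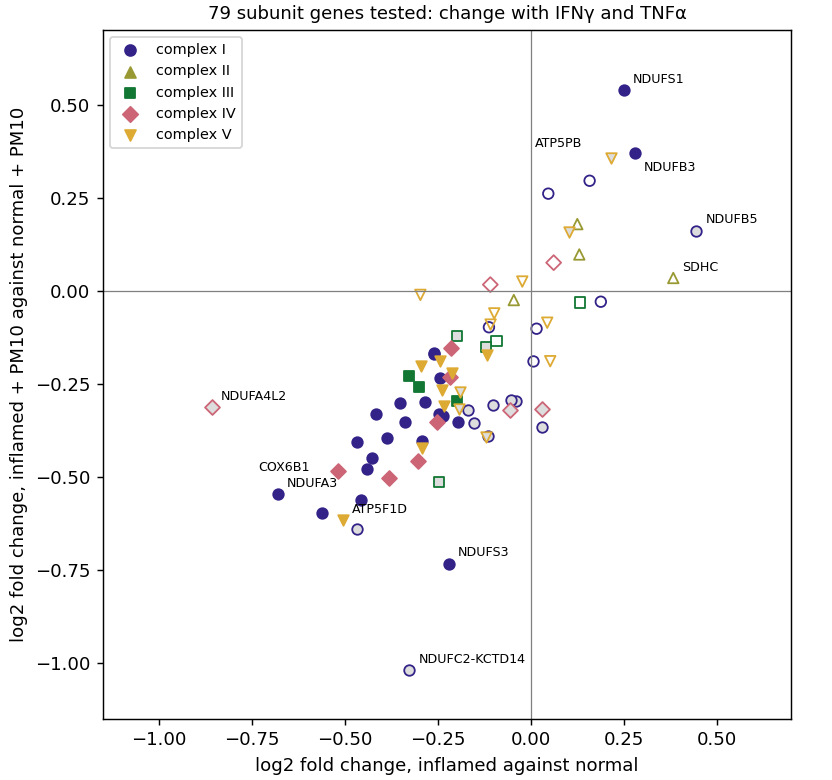
Log2 fold change of the 79 subunit genes tested, on log2(FPKM + 1), with the cytokines in the absence (horizontal) and in the presence (vertical) of PM10, with the complex given by colour and shape. Filled symbols were called by limma in both comparisons, grey symbols in 1 and open symbols in none; 35 filled symbols lie at the lower left and 2, NDUFB3 and NDUFS1, at the upper right.

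**Figure D3:**
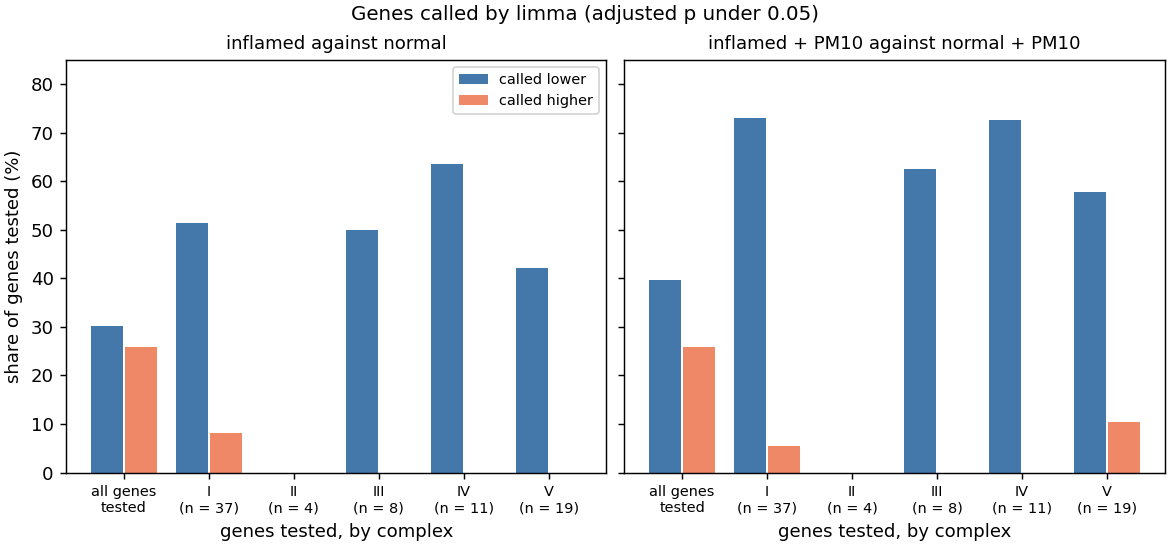
Share of genes tested (%) that limma called lower (blue) and higher (orange) with the cytokines, for all 14206 genes and for each complex, without PM10 (left) and with PM10 (right). In complex I, 19 of 37 genes fell without PM10 and 27 of 37 with PM10, and no bar is drawn for complex II, where none of 4 was called.

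Complex I, the complex with the most genes, had the largest number that fell. Without PM10, 19 of its 37 genes fell and 3 rose, with a median log2 fold change of -0.24, and with PM10, 27 fell and 2 rose, with a median of -0.33. The genes that fell were 51.4% and 73% of complex I, against 63.6% and 72.7% of complex IV. Of all genes tested, 30.3% and 39.6% fell. The N module of complex I binds and oxidizes NADH, its Q module hands electrons to ubiquinone, and the remaining subunits form the membrane arm or its surroundings. In the N module 4 of 10 genes fell without PM10 (NDUFA2, NDUFA12, NDUFS4 and NDUFV1) and 7 with PM10, where NDUFA6, NDUFS6 and NDUFV3 joined them. Of the 5 Q module genes, NDUFS3 and NDUFS8 fell without PM10 and NDUFS7 fell too with PM10. Of the other 22 genes, 13 fell without PM10 and 17 with PM10. The shares that fell were 40% and 70% in the N module, 40% and 60% in the Q module, and 59.1% and 77.3% elsewhere.

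NDUFS5, an accessory subunit at the intermembrane side and the complex I gene with the highest mean FPKM (GRCh38 chr1:39026318-39034636), measured 282 and 282 FPKM in normal hIECs, 282 and 271 with PM10, 236 and 227 with cytokines, and 220.0 and 230.2 with both. All 4 libraries with cytokines were below the 4 without, and the log2 fold change was -0.28 without and -0.30 with PM10 (SE 0.046 for each, limma adjusted p = 0.00155 and 0.000936). NDUFA3 encodes a small subunit of the membrane arm and measured 112 and 119.8 FPKM in normal hIECs, 87.3 and 91.8 with PM10, 66.5 and 77.8 with cytokines, and 55.6 and 66.98 with both. Its log2 fold change was -0.68 without and -0.55 with PM10 (SE 0.10 for each, limma adjusted p = 0.00108 and 0.00253), the lowest of complex I without PM10. NDUFA11, another membrane subunit, measured 122 and 148 FPKM in normal hIECs, 136 and 129 with PM10, 86.1 and 95.3 with cytokines, and 89.02 and 85.1 with both. Its groups did not overlap between cytokines and none, and it fell by 0.56 on the log2 scale without PM10 and by 0.60 with PM10.

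Several further genes outside the N and Q modules fell in both pairs, namely NDUFA1, NDUFA8, NDUFA13, NDUFB4, NDUFB8, NDUFB9, NDUFB10, NDUFB11 and NDUFC2. NDUFB4 measured 118 and 120.3 FPKM in normal hIECs, 104 and 101 with PM10, 83.5 and 87.96 with cytokines, and 76.4 and 77.2 with both. It was highest in the 2 normal libraries and lowest in the 2 libraries with both treatments, and its log2 fold change with the cytokines was -0.47 without and -0.41 with PM10 (SE 0.046 for each, limma adjusted p = 0.000119 and 0.000183). NDUFB7 fell without PM10 only by the test (-0.26 ± 0.078 SE, limma adjusted p = 0.0232; with PM10 -0.17 ± 0.078 SE, limma adjusted p = 0.0945), and the difference between those values was not past the threshold in the interaction. NDUFB1, NDUFB2, NDUFB6 and NDUFC1 fell in the pair with PM10 and were not called in the pair without, also with no call in the interaction. NDUFC1, at -0.37 on the log2 scale with PM10, was not called without normal PM10 replicate 1 (-0.19), inflamed PM10 replicate 1 (-0.32) or inflamed PM10 replicate 2 (-0.41).

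NDUFA12, an N module subunit, measured 74.3 and 78.8 FPKM in normal hIECs, 70.4 and 70.99 with PM10, 61.1 and 59.5 with cytokines, and 52.99 and 57.5 with both, with a log2 fold change of -0.34 without and -0.35 with PM10 (SE 0.056 for each, limma adjusted p = 0.00162 and 0.00101). NDUFS6 measured 40.9 and 40.00 FPKM in normal hIECs, 44.1 and 44.5 with PM10, 37.7 and 34.8 with cytokines, and 35.5 and 33.3 with both, and its log2 fold change was -0.15 without and -0.36 with PM10 (SE 0.057 for each, limma adjusted p = 0.0512 and 0.00107). In NDUFS4, an accessory subunit that stabilizes the module, the values were 62.5 and 57.8 FPKM in normal hIECs, 55.6 and 58.8 with PM10, 50.2 and 54.6 with cytokines, and 42.5 and 46.7 with both, and the log2 fold change was -0.20 without and -0.35 with PM10 (SE 0.071 for each, limma adjusted p = 0.0498 and 0.00352). That call without PM10 was lost under 14 of 18 other settings, among them every removal of 1 library other than normal replicate 2, with values from -0.25 to -0.14.

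In the Q module, NDUFS8, which carries iron-sulfur clusters, measured 100.1 and 112 FPKM in normal hIECs, 92.8 and 102 with PM10, 75.9 and 80.96 with cytokines, and 71.5 and 70.6 with both, with no overlap between libraries with and without cytokines. NDUFS7, its iron-sulfur neighbour, was more spread, at 35.2 and 27.1 FPKM in normal hIECs, 26.5 and 30.8 with PM10, 18.9 and 25.7 with cytokines, and 15.7 and 20.6 with both, and its log2 fold change was -0.47 without and -0.64 with PM10 (SE 0.19 for each, limma adjusted p = 0.0687 and 0.0192), with the call lost without normal PM10 replicate 2 (-0.53) or inflamed PM10 replicate 1 (-0.45). NDUFA5 did not pass the cytokine test in either pair. NDUFS3, described below, fell by 0.22 on the log2 scale without PM10. That call was lost under 3 of 18 other settings, among them without normal replicate 1 (-0.16) or inflamed replicate 2.

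Complex I genes also rose. NDUFS1, the large iron-sulfur subunit of the N module, measured 6.41 and 5.64 FPKM in normal hIECs, 5.31 and 5.48 with PM10, 7.18 and 7.51 with cytokines, and 8.35 and 8.23 with both. Every library with cytokines was above every library without, and the log2 fold change was 0.25 without and 0.54 with PM10 (SE 0.071 for each, limma adjusted p = 0.0189 and 0.000385). In the first pair it was not called without normal replicate 2 (0.17), inflamed replicate 1 (0.28) or inflamed replicate 2 (0.22). NDUFB3, a membrane arm subunit, measured 64.9 and 59.3 FPKM in normal hIECs, 59.9 and 57.7 with PM10, 76.2 and 74.8 with cytokines, and 75.1 and 77.4 with both, again with no overlap, and its log2 fold change was 0.28 without and 0.37 with PM10 (SE 0.056 for each, limma adjusted p = 0.00401 and 0.000784). NDUFB5 measured 16.4 and 19.4 FPKM in normal hIECs, 23.97 and 22.3 with PM10, 28.4 and 21.4 with cytokines, and 25.7 and 26.3 with both, and it rose without PM10 (0.44 ± 0.13 SE, limma adjusted p = 0.0214), where inflamed replicate 1 was the highest library. It was not called without normal replicate 1 (0.33) or inflamed replicate 1 (0.25). With PM10 its log2 fold change was 0.16 ± 0.13 (SE, limma adjusted p = 0.303).

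The readthrough row NDUFC2-KCTD14 ran from 0.369 to 3.92 FPKM and shares exons with NDUFC2 and KCTD14, so that its estimate rests on how StringTie divided reads. It fell with the cytokines in the presence of PM10 (-1.02 ± 0.35 SE, limma adjusted p = 0.0334) and lost that call under 9 of 17 other settings, among them without normal replicate 1 (-1.02), normal replicate 2 (-1.02), normal PM10 replicate 1 (-1.10), normal PM10 replicate 2 (-0.94) or inflamed PM10 replicate 2 (-0.57). NDUFA9, NDUFA10, NDUFA7 and NDUFV2 were called in neither cytokine comparison.

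None of the 4 genes of complex II was called by limma in any of the 5 comparisons. With the cytokines, 30.3% of all genes tested fell and 25.9% rose without PM10, and 39.6% and 25.8% with PM10. A set of 4 genes is too small to be set apart from those shares. At an unadjusted p below 0.05, SDHB was higher without PM10 and SDHD with PM10, and among the other settings up to 1 and 2 of the 4 genes were called higher in these comparisons. SDHA, the flavoprotein that oxidizes succinate, measured 28.7 and 28.7 FPKM in normal hIECs, 30.5 and 32.9 with PM10, 26.6 and 28.98 with cytokines, and 31.97 and 30.3 with both. SDHB, the iron-sulfur subunit, measured 39.2 and 35.9 FPKM in normal hIECs, 38.5 and 37.4 with PM10, 41.5 and 40.8 with cytokines, and 41.2 and 40.1 with both, and its 4 libraries with cytokines lay above the 4 without by a narrow margin. SDHC, a membrane anchor, measured 9.21 and 7.44 FPKM in normal hIECs, 6.87 and 7.98 with PM10, 12.7 and 9.71 with cytokines, and 6.26 and 9.22 with both, and both libraries with cytokines alone were above the other 6. SDHD, the other anchor, measured 30.98 and 28.98 FPKM in normal hIECs, 32.7 and 29.6 with PM10, 34.4 and 31.2 with cytokines, and 34.6 and 36.03 with both, where both libraries with both treatments were above all 4 without cytokines, with a log2 fold change of 0.12 without and 0.18 with PM10 (SE 0.072 for each, limma adjusted p = 0.179 and 0.0605). The median log2 fold change of the 4 genes was 0.13 without PM10 and 0.07 with PM10.

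In complex III, 4 of 8 genes tested fell without PM10 (UQCRH, UQCR11, UQCRB and UQCRC1) and 5 with PM10 (UQCR10, UQCR11, UQCRB, UQCRC1 and UQCRQ), and none rose. At an unadjusted p below 0.05, 1 was higher without PM10 and 0 with PM10. The genes that fell were 50% and 62.5% of the 8. Of all genes tested, 30.3% and 39.6% fell and 25.9% and 25.8% rose. UQCRH, the hinge protein near the cytochrome c site and the gene of complex III with the highest mean (GRCh38 chr1:46303698-46316776), measured 207 and 219 FPKM in normal hIECs, 190.1 and 187 with PM10, 188 and 183 with cytokines, and 170.4 and 177 with both. Its log2 fold change was -0.20 without and -0.12 with PM10 (SE 0.047 for each, limma adjusted p = 0.00927 and 0.0548), and without inflamed replicate 2 (-0.18) it was not called in the first pair. UQCR11, a small membrane subunit, measured 51.7 and 46.02 FPKM in normal hIECs, 49.7 and 49.1 with PM10, 40.4 and 37.04 with cytokines, and 41.6 and 42.5 with both and fell in both pairs, with the call in the pair with PM10 lost without normal PM10 replicate 1 (-0.22), normal PM10 replicate 2 (-0.24), inflamed PM10 replicate 1 (-0.21) or inflamed PM10 replicate 2 (-0.24). UQCRQ measured 71.03 and 93.3 FPKM in normal hIECs, 68.3 and 89.6 with PM10, 60.6 and 77.2 with cytokines, and 58.97 and 50.4 with both, with replicates of a group wide apart. Its log2 fold change was -0.25 without and -0.51 with PM10 (SE 0.18 for each, limma adjusted p = 0.282 and 0.0395), and with PM10 it was not called without normal PM10 replicate 2 (-0.32), inflamed PM10 replicate 1 (-0.63) or inflamed PM10 replicate 2 (-0.40). UQCRFS1, the Rieske iron-sulfur protein, stayed between 20.2 and 22.7 FPKM in all libraries and UQCRC2, a core protein, between 42.1 and 50.4, and both were called in no comparison. UQCRHL, a retrocopy of UQCRH, stayed at or below 0.424 FPKM and was not tested.

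In complex IV, 7 of 11 genes tested fell without PM10 and 8 with PM10, none rose, and none was higher at an unadjusted p below 0.05. The 7 include NDUFA4L2, tested only through its libraries without cytokines. The genes that fell were 63.6% and 72.7% of the 11. Of all genes tested, 30.3% and 39.6% fell and 25.9% and 25.8% rose. COX5A, COX5B, COX6A1, COX6B1, COX6C and COX7C fell in both pairs. COX7C, the complex IV gene with the highest mean (GRCh38 chr5:86617928-86620962), measured 318 and 301 FPKM in normal hIECs, 279.8 and 269 with PM10, 261 and 241 with cytokines, and 207 and 191 with both. Each group was below the one before it in that order, and its log2 fold change with the cytokines was -0.30 without and -0.46 with PM10 (SE 0.062 for each, limma adjusted p = 0.00451 and 0.000447). COX6B1, which faces cytochrome c, measured 270.3 and 279 FPKM in normal hIECs, 258 and 260.4 with PM10, 188 and 195 with cytokines, and 189 and 181 with both. Its log2 fold change of -0.52 without and -0.49 with PM10 (SE 0.045 for each, limma adjusted p = 6.32e-05 and 6.48e-05) held under all 18 other settings in both pairs. COX5B measured 119 and 122 FPKM in normal hIECs, 123 and 113 with PM10, 96.3 and 88.3 with cytokines, and 79.4 and 85.9 with both, with a log2 fold change of -0.38 without and -0.50 with PM10 (SE 0.067 for each, limma adjusted p = 0.00224 and 0.000421).

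Complex IV has paralogs with tissue-restricted expression, and these libraries held the broadly expressed ones. COX6A1 was between 216 and 269 FPKM, and COX6A2, the heart and skeletal muscle form, was at or below 0.713 and listed at 0 in all 4 libraries with cytokines. COX6B1 was between 181 and 279 FPKM and COX6B2, a testis form, at or below 1.00. COX7A2 was between 131 and 163 FPKM and COX7A1 at 0. COX7B was between 44.4 and 63.8 FPKM and COX7B2 at 0, and COX8A between 154 and 187 with COX8C at 0. COX7A2 and COX8A did not pass the cytokine test in either pair, and COX7B fell only in the pair with PM10 by the test (-0.32 ± 0.10 SE, limma adjusted p = 0.026; without PM10 0.03 ± 0.10 SE, limma adjusted p = 0.821), with no call in the interaction. COX7B was not called without normal PM10 replicate 1 (-0.27), normal PM10 replicate 2 (-0.37) or inflamed PM10 replicate 1 (-0.17), nor COX6A1 in the pair without PM10 without inflamed replicate 1 (-0.17). The call of COX6A1 with PM10 (-0.15 ± 0.055 SE, limma adjusted p = 0.0417) was lost under 10 of 18 other settings, in 6 of them by leaving out any library other than the normal replicates (from -0.18 to -0.13).

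NDUFA4 was first described as a complex I subunit and sits at complex IV. Its paralog C15orf48 can take its place there in inflamed cells, and the C15orf48 transcript is also the host of miR-147b, a miRNA known to repress NDUFA4. A further paralog, NDUFA4L2, is known from hypoxic cells. C15orf48, which is not among the 86 genes, measured 9.33 and 7.46 FPKM in normal hIECs, 9.80 and 8.45 with PM10, 138 and 138 with cytokines, and 193 and 195 with both. It rose with the cytokines by 3.89 ± 0.10 (SE, limma adjusted p = 1.46e-07) on the log2 scale without PM10 and by 4.27 ± 0.10 (SE, limma adjusted p = 7.28e-08) with PM10, and it was higher with PM10 in inflamed hIECs (0.49 ± 0.10 SE, limma adjusted p = 0.0193), a call lost without inflamed replicate 1 (0.49), inflamed replicate 2 (0.49), inflamed PM10 replicate 1 (0.49) or inflamed PM10 replicate 2 (0.48). NDUFA4 (GRCh38 chr7:10931943-10940153) measured 71.8 and 66.3 FPKM in normal hIECs, 71.5 and 67.6 with PM10, 68.1 and 64.6 with cytokines, and 56.6 and 54.3 with both. With the cytokines its log2 fold change was -0.06 without and -0.32 with PM10 (SE 0.059 for each, limma adjusted p = 0.454 and 0.00223), so that it fell in the presence of PM10 and did not pass the test without. The interaction of NDUFA4 (-0.27) was not called. With PM10 in inflamed hIECs NDUFA4 fell by 0.25 ± 0.059 on the log2 scale (SE, limma adjusted p = 0.0306). That call was lost under 7 of 18 other settings, among them every removal of 1 library other than the normal replicates (from -0.29 to -0.22).

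The ratio of C15orf48 to NDUFA4 in FPKM was 0.130 and 0.113 in normal hIECs, 0.137 and 0.125 with PM10, 2.02 and 2.13 with cytokines, and 3.41 and 3.58 with both. NDUFA4L2 measured 1.60 and 2.54 FPKM in normal hIECs, 0.917 and 1.43 with PM10, 0.942 and 0.443 with cytokines, and 0.727 and 0.752 with both. It fell without PM10 (-0.86 ± 0.20 SE, limma adjusted p = 0.00851) and not by the test with PM10 (-0.31 ± 0.20 SE, limma adjusted p = 0.206), and it had passed the minimum of 1 FPKM in 3 libraries, all of them without cytokines. Its call was lost without normal replicate 2 (-0.64) or inflamed replicate 2 (-0.64).

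**Figure D4:**
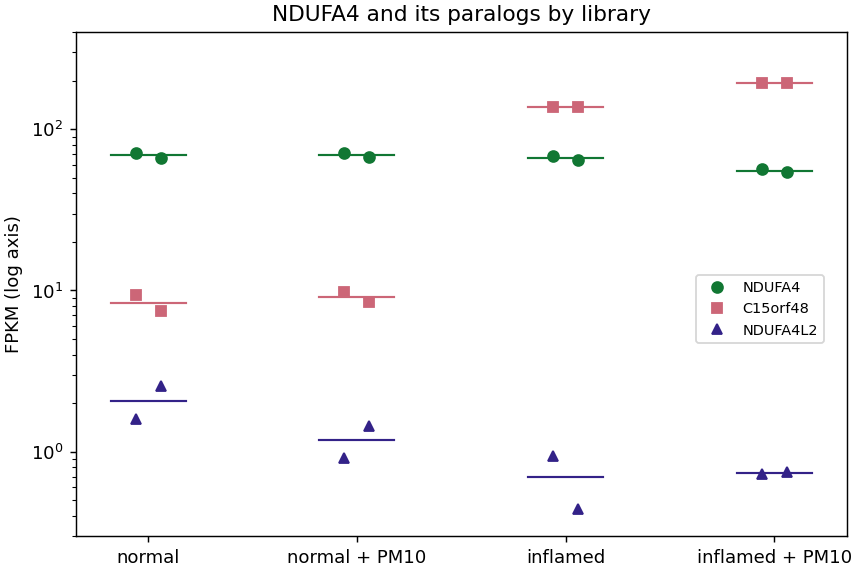
FPKM (log axis) of NDUFA4, C15orf48 and NDUFA4L2 in the 2 libraries of each group; points are libraries and short lines are means of 2. C15orf48 lies below NDUFA4 in the 4 libraries without cytokines (ratio 0.113 to 0.137) and above it in the 4 with cytokines (ratio 2.02 to 3.58).

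The sequence of miR-147b-3p (GRCh38.p14 chr15:45433098-45433118, plus strand, inside an exon of 2 C15orf48 transcripts of GENCODE release 44) and the part of the NDUFA4 3′ UTR that pairs with its seed are shown because the miRNA lies in C15orf48 and NDUFA4 is its known target. Capitals mark bases 2 to 8 of the miRNA, its seed, and the 7 bases complementary to them in the NDUFA4 transcript (chr7:10933573-10933594, minus strand, where the 3′ UTR starts at base 343 of a transcript of 2035 bases and the match at base 398). The match is in the sequence only, and mature miRNA is not measured by these poly-A libraries.
miR-147b-3p: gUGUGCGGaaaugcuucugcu
NDUFA4 3′ UTR: tccagaagccacatCCGCACAa

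In complex V, 8 of 19 genes tested fell without PM10 and none rose, and 11 fell and 2 rose with PM10. At an unadjusted p below 0.05, 1 was higher without PM10. The genes that fell were 42.1% and 57.9% of the 19, and those that rose 0% and 10.5%. Of all genes tested, 30.3% and 39.6% fell and 25.9% and 25.8% rose. The F1 part holds the catalytic sites. ATP5F1D, the delta subunit of its central stalk (GRCh38 chr19:1241746-1244825), measured 61.7 and 69.7 FPKM in normal hIECs, 61.97 and 72.7 with PM10, 44.4 and 47.4 with cytokines, and 43.2 and 43.7 with both, and with no overlap its log2 fold change was -0.51 without and -0.62 with PM10 (SE 0.088 for each, limma adjusted p = 0.00212 and 0.000613). ATP5F1C, the gamma subunit, measured 121 and 110.3 FPKM in normal hIECs, 113 and 112 with PM10, 100.3 and 98.9 with cytokines, and 97.5 and 95.3 with both. Its log2 fold change was -0.21 without and -0.22 with PM10 (SE 0.054 for each, limma adjusted p = 0.0117 and 0.00838), and it was not called without inflamed replicate 2 (-0.20) in the first pair or without inflamed PM10 replicate 2 (-0.20) in the other. ATP5F1B, the catalytic beta subunit, measured 182 and 170.1 FPKM in normal hIECs, 180.2 and 183 with PM10, 188 and 190.1 with cytokines, and 205 and 199.6 with both and rose in the pair with PM10 (0.16 ± 0.048 SE, limma adjusted p = 0.0217), a call lost without normal PM10 replicate 1 (0.15), normal PM10 replicate 2 (0.17), inflamed PM10 replicate 1 (0.14) or inflamed PM10 replicate 2 (0.18). Its partner ATP5F1A spread from 114.8 to 183 FPKM between the normal libraries, and ATP5F1E stayed between 46.5 and 51.6, and neither was called.

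Outside the F1 part, ATP5MD, ATP5MF, ATP5MG, ATP5MPL, ATP5PD and ATP5PO fell in both pairs. ATP5PO encodes the subunit that ties the peripheral stalk to F1 and measured 154 and 147 FPKM in normal hIECs, 147 and 149 with PM10, 127 and 118 with cytokines, and 108 and 111 with both. ATP5PB, the b subunit of the same stalk, rose in the pair with PM10. It measured 41.6 and 40.9 FPKM in normal hIECs, 46.00 and 48.02 with PM10, 50.9 and 45.3 with cytokines, and 64.7 and 56.5 with both, and its log2 fold change with the cytokines was 0.21 without and 0.36 with PM10 (SE 0.080 for each, limma adjusted p = 0.0528 and 0.00559). ATP5ME, the complex V gene with the highest mean, measured 229 and 258 FPKM in normal hIECs, 226 and 249 with PM10, 225 and 222 with cytokines, and 186 and 175 with both and fell in the pair with PM10 (-0.39 ± 0.073 SE, limma adjusted p = 0.00225; without PM10 -0.12 ± 0.073 SE, limma adjusted p = 0.194).

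The rotor ring of complex V is made from 3 genes that encode the same mature protein. ATP5MC2 was the highest of them, at 141 and 160.2 FPKM in normal hIECs, 138 and 154 with PM10, 134 and 129 with cytokines, and 120.0 and 121 with both. ATP5MC1 stayed between 62.4 and 72.7 FPKM and ATP5MC3 between 42.6 and 58.9. ATP5MC2 and ATP5MC3 fell in the pair with PM10, by 0.27 and 0.32 on the log2 scale, and none of the 3 was called without PM10. ATP5MC2 was not called without normal PM10 replicate 2 (-0.19), inflamed PM10 replicate 1 (-0.26) or inflamed PM10 replicate 2 (-0.28), and ATP5MC3 without inflamed PM10 replicate 1 (-0.26). ATP5IF1, the inhibitor that stops the synthase from running backwards, stayed between 99.2 and 111 FPKM and was called in no comparison. The readthrough row ATP5MF-PTCD1 stayed at or below 2.26 FPKM, and ATP5PF between 90.8 and 109 FPKM, and neither was called.

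The effect of PM10 was measured in normal and in inflamed hIECs, again in pairs that share no library but share the estimate of the spread. In normal hIECs, 1 gene rose and ATP5MD, COX7A2 and NDUFB4 fell, which is 1.27% and 3.80% of the 79 genes, against 5.51% and 3.72% of all genes tested, so the share that fell was near that of all genes. With libraries centred on their medians the counts were 0 and 3. In inflamed hIECs, ATP5PB, the b subunit, rose and 9 genes fell, NDUFA1, NDUFA6, NDUFS3, COX6C, COX7C, NDUFA4, ATP5MD, ATP5ME and ATP5MF. These are 1.27% and 11.4% of the 79 genes, against 6.22% and 9.02% of all genes tested, a share of genes that fell near that of all genes. By a 2-fold rule, NDUFC2-KCTD14 alone was higher in normal hIECs and none was lower, against 0.19% and 0.387% of all genes tested, and none passed in inflamed hIECs, against 0.317% and 0.528%. The median log2 fold change with PM10 was -0.04 in normal and -0.08 in inflamed hIECs, and 0.06 and -0.01 over all genes tested. Every one of these PM10 calls was lost under at least 1 other setting. Leaving out either inflamed library or either inflamed library with PM10 left 0 to 2 genes called lower in inflamed hIECs. In normal hIECs, leaving out any library other than the normal replicates left 0 or 1, and leaving out normal replicate 1 gave 6.

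**Figure D5:**
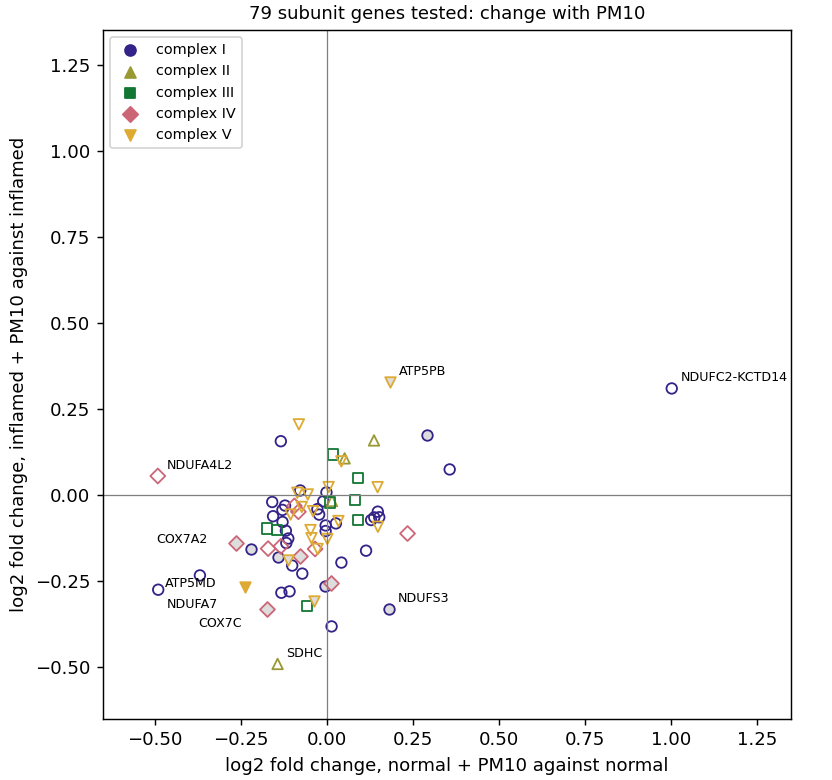
Log2 fold change of the 79 subunit genes tested with PM10, on log2(FPKM + 1), in normal hIECs (horizontal) and in inflamed hIECs (vertical). Filled symbols were called by limma in both comparisons, grey symbols in 1 and open symbols in none; the only filled symbol is ATP5MD, NDUFS3 lies at the lower right, and NDUFC2-KCTD14, at 1.00 in normal hIECs, was not called.

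ATP5MD, a small membrane subunit of complex V that is known as ATP5MK in newer annotation, was the 1 gene called with PM10 in both. It measured 151 and 138 FPKM in normal hIECs, 124 and 120.1 with PM10, 121 and 123 with cytokines, and 99.8 and 103 with both, and its log2 fold change with PM10 was -0.24 ± 0.055 (SE, limma adjusted p = 0.0401) in normal hIECs and -0.27 ± 0.055 (SE, limma adjusted p = 0.0197) in inflamed hIECs. Both libraries with PM10 lay below both without, in normal and in inflamed hIECs, for 15 of the 79 genes (19.0%, against 10.1% of all genes tested), ATP5MD, COX6C, COX7C, COX7A2, NDUFA1 and NDUFB4 among them. COX7A2 measured 163 and 155 FPKM in normal hIECs, 131 and 133 with PM10, 154 and 141 with cytokines, and 135 and 133 with both and changed by -0.26 ± 0.055 (SE, limma adjusted p = 0.0301) in normal and -0.14 ± 0.055 (SE, limma adjusted p = 0.131) in inflamed hIECs.

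Several large estimates did not pass the test. NDUFA7 had the lowest value of complex I with PM10 in normal hIECs (-0.49 ± 0.12 SE, limma adjusted p = 0.0503) and measured 32.3 and 39.3 FPKM in normal hIECs, 28.3 and 22.2 with PM10, 36.3 and 37.4 with cytokines, and 30.2 and 30.3 with both. Its exons overlap those of RPS28, and without strand information reads of the 2 genes cannot be told apart. NDUFC1 had the lowest in inflamed hIECs (-0.38 ± 0.11 SE, limma adjusted p = 0.0644), and SDHC the lowest of complex II (-0.49 ± 0.19 SE, limma adjusted p = 0.12).

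The interaction asked whether PM10 acted differently in inflamed and normal hIECs, and NDUFS3 was the only subunit gene called (1.27% of 79, against 4.48% of all genes tested that were lower and 2.11% that were higher). NDUFS3 is a core subunit of the Q module (GRCh38 chr11:47565336-47584562) and measured 57.5 and 53.1 FPKM in normal hIECs, 62.2 and 63.3 with PM10, 49.2 and 45.4 with cytokines, and 39.3 and 35.5 with both. With PM10 it was higher in both libraries of normal hIECs and lower in both libraries of inflamed hIECs. The log2 fold change with PM10 was 0.18 ± 0.070 (SE, limma adjusted p = 0.137) in normal and -0.33 ± 0.070 (SE, limma adjusted p = 0.0213) in inflamed hIECs, and their difference was -0.51 ± 0.098 (SE, limma adjusted p = 0.0287). Over the other settings the adjusted p of the difference ranged from 0.0197 to 0.101, and it was above 0.05 whenever any library other than normal replicate 1 was left out. No subunit gene was called higher in the interaction, and 1 was at an unadjusted p below 0.05.

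NDUFS3 shares exon positions with CELF1, on the other strand, and with PTPMT1. In the interaction CELF1 stood at -0.32 (limma adjusted p = 0.136) and PTPMT1 at -0.17 (limma adjusted p = 0.379). With the cytokines in the presence of PM10, NDUFS3 fell by 0.73 on the log2 scale, PTPMT1 fell by 0.38 and CELF1 stood at -0.08 and was not called. In all, 46 of the 79 genes tested have an exon that overlaps another gene, and 22 of these 46 fell without PM10, as did 16 of the other 33. With PM10 the counts were 31 of 46 and 20 of 33.

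The genes that fell had a higher median level than the others. Without PM10, the 38 that fell had a median of their mean FPKM of 92.2 against 49.2 for the other 41 genes tested, and a median exon length of 2276 against 2859 bases. With PM10 the values were 74.0 against 44.8 FPKM for 51 and 28 genes, and 2302 against 2797 bases. Across the 79 genes, Spearman's rho of the log2 fold change with mean FPKM was -0.32 without PM10 and -0.20 with PM10, and across all 14206 genes it was 0.076 and 0.079. With exon length, rho was 0.19 and 0.095 over the 79 genes and 0.17 and 0.14 over the 14174 genes tested with an annotated length. These are descriptions across genes measured in the same libraries, which are not independent replicates.

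Promoters of respiratory chain genes are known for sites of NRF1, of ETS factors such as GABPA and of YY1. RefSeq windows of 300 bases on GRCh38.p14, from 250 before to 50 after a start site, were at hand for 68 of the 86 genes (80 windows). The NRF1 core GCATGCGC was found on either strand in 18.8% of the 80 windows and 3.05% of all 35116 windows. The ETS core CCGGAAGT was in 15% and 4.14%, and the YY1 core AAGATGGCG in 12.5% and 1.75%. At least 1 of the 3 was in 37.5% of the windows of subunit genes and 8.35% of all. Among the 64 tested genes with a window, 13 of 30 that fell without PM10 had a motif (43.3%), as did 15 of the other 34 (44.1%). With PM10 the counts were 18 of 42 (42.9%) and 10 of 22 (45.5%).

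Parts of 4 promoters, from 180 bases before to 20 after the start site, show these letters in genes with unlike responses, COX5B and NDUFB4, which fell with the cytokines in both pairs, NDUFS1, which rose in both, and SDHD, which was not called. Capitals mark the motifs. COX5B (chr2:97645882-97646081, plus strand) holds the NRF1 core and 2 copies of the ETS core, and NDUFB4 (chr3:120596156-120596355, plus strand) holds the NRF1 core on both strands, in matches that overlap. NDUFS1 (chr2:206159425-206159624, minus strand) holds the ETS core on the opposite strand, and SDHD (chr11:112086693-112086892, plus strand) the overlapping NRF1 cores and an ETS core on the opposite strand. A match of letters is not a measured binding site.
COX5B: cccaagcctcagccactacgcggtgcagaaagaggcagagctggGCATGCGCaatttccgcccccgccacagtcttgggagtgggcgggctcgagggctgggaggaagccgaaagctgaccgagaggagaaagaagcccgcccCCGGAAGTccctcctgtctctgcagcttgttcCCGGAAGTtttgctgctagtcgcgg
NDUFB4: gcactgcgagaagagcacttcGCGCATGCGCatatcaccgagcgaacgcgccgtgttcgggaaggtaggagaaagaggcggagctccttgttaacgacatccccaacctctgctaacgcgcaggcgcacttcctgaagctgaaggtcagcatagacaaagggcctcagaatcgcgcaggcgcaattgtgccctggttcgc
NDUFS1: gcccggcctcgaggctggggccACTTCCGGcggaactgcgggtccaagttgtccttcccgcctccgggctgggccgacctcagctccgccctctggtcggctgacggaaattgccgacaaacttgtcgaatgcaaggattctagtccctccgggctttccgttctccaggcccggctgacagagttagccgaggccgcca
SDHD: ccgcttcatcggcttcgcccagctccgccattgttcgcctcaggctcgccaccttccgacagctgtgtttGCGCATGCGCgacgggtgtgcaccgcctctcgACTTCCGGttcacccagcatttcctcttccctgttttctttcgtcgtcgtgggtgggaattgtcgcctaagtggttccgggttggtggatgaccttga

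The genes left out by the name rule included the mobile carrier of the chain. CYCS, cytochrome c, measured 19.6 and 16.6 FPKM in normal hIECs, 16.8 and 17.1 with PM10, 24.5 and 25.04 with cytokines, and 27.5 and 26.6 with both, and it rose with the cytokines, with a log2 fold change of 0.44 without and 0.64 with PM10 (SE 0.075 for each, limma adjusted p = 0.00199 and 0.000211). CYC1, the cytochrome c1 of complex III, stayed between 42.2 and 45.2 FPKM, and NDUFAB1, the acyl carrier protein in complex I, between 53.1 and 62.8, and neither was called. COX4I1, an early-assembled subunit of complex IV, measured 304 and 335 FPKM in normal hIECs, 264 and 273 with PM10, 268 and 278 with cytokines, and 267 and 286 with both, and its log2 fold change was -0.22 without and 0.04 with PM10 (SE 0.062 for each, limma adjusted p = 0.017 and 0.592), with the call without PM10 lost without normal replicate 2 (-0.16) or inflamed replicate 1 (-0.20). It was also lower with PM10 in normal hIECs (-0.25 ± 0.062 SE, limma adjusted p = 0.0496), a call lost under 13 of 18 other settings, and COX4I2 was listed at 0. COX7A2L, which joins complexes III and IV, fell in both pairs, by 0.25 and 0.23 on the log2 scale.

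The 13 subunits encoded by mitochondrial DNA are part of the same complexes. Without PM10, 3 of them fell with the cytokines (MT-CO3, MT-ND3 and MT-ND4L), which is 23.1% against 30.3% of all genes tested, and with PM10, 8 did, which is 61.5% against 39.6%, and none rose. The call of MT-ND4L without PM10 was lost under 12 of 18 other settings, among them without normal PM10 replicate 1 (-0.33), normal PM10 replicate 2 (-0.33), inflamed replicate 1 (-0.32), inflamed replicate 2 (-0.33), inflamed PM10 replicate 1 (-0.33) or inflamed PM10 replicate 2 (-0.33), and its value of -0.33 became -0.12 without normal replicate 2. Their median log2 fold change was -0.35 and -0.53. MT-ND3 changed by -0.61 without and -0.66 with PM10 (SE 0.15 for each, limma adjusted p = 0.00974 and 0.00564), and MT-ND5 by -0.19 without and -0.67 with PM10 (SE 0.15 for each, limma adjusted p = 0.322 and 0.00552). Without normal replicate 2, which stood apart in this RNA, MT-ND3 changed by -0.34 in the pair without PM10. MT-CO1, a catalytic subunit of complex IV, changed by -0.35 without and -0.59 with PM10 (SE 0.15 for each, limma adjusted p = 0.0804 and 0.0102). The sum of the 13 was 61541 and 97387 FPKM in normal hIECs, and this spread between replicates was wider than the distance to the 2 inflamed libraries, at 60263 and 60738. The libraries of normal hIECs with PM10 stood at 75843 and 75139 and those of inflamed hIECs with PM10 at 53526 and 54127.

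Assembly factors build the complexes and are not part of them. Of 57 such genes tested, 10 fell and 9 rose with the cytokines without PM10 (17.5% and 15.8%, against 30.3% and 25.9% of all genes tested), and 20 fell and 7 rose with PM10 (35.1% and 12.3%, against 39.6% and 25.8%). For complex I, NDUFAF7, a methyltransferase, changed by -0.58 without and -0.94 with PM10 (SE 0.090 for each, limma adjusted p = 0.00126 and 7.67e-05). ECSIT changed by -0.44 without and -0.75 with PM10 (SE 0.082 for each, limma adjusted p = 0.00291 and 0.000147), and TIMMDC1 rose in both pairs, with the call in the presence of PM10 lost without normal PM10 replicate 1 (0.15), inflamed PM10 replicate 1 (0.25) or inflamed PM10 replicate 2 (0.23). For complex IV, PET100 changed by -0.57 without and -0.59 with PM10 (SE 0.060 for each, limma adjusted p = 0.000159 and 0.000101), and COA5 by -0.41 without and -0.85 with PM10 (SE 0.096 for each, limma adjusted p = 0.00795 and 0.000175). The copper chaperone SCO1 rose by 0.37 and 0.70 and COX14 rose without PM10 by 0.59 on the log2 scale, and SCO1 was not called in the first pair without normal replicate 2 (0.35) or inflamed replicate 2 (0.32). Of the complex II factors SDHAF4 fell in both pairs (-0.53 and -0.48), with calls lost without normal replicate 1 (-0.49) or inflamed replicate 1 (-0.32) in the first and without normal PM10 replicate 2 (-0.40) or inflamed PM10 replicate 1 (-0.40) in the other. Of the complex III factors, UQCC2 fell (-0.23 and -0.49) and TTC19 rose (0.34 and 0.40). Without PM10 the call of UQCC2 was lost under 7 of 18 other settings, among them without normal replicate 1 (-0.18), normal PM10 replicate 1 (-0.23), normal PM10 replicate 2 (-0.23), inflamed replicate 1 (-0.25) or inflamed replicate 2 (-0.22). That of TTC19 was lost under 8, among them without normal replicate 2 (0.18), normal PM10 replicate 1 (0.34), normal PM10 replicate 2 (0.34), inflamed replicate 1 (0.25), inflamed PM10 replicate 1 (0.34) or inflamed PM10 replicate 2 (0.34), and with PM10 it was lost without normal PM10 replicate 1 (0.34) or inflamed PM10 replicate 1 (0.35). Of the complex V factors, FMC1 (-0.55 and -0.49) and ATPAF2 (-0.33 and -0.32) fell and ATPAF1 (0.21 and 0.24) rose. Without PM10, ATPAF2 was not called without inflamed replicate 2 (-0.31) and stood at -0.20 without normal replicate 1, and ATPAF1 was not called without inflamed replicate 1 (0.22) or inflamed replicate 2 (0.20). With PM10, ATPAF2 was not called without normal PM10 replicate 1 (-0.32), normal PM10 replicate 2 (-0.32), inflamed PM10 replicate 1 (-0.31) or inflamed PM10 replicate 2 (-0.33), nor FMC1 without normal PM10 replicate 1 (-0.45). TMEM70, which helps to assemble complex V, UQCC3, SDHAF1 and TMEM186 fell in the pair with PM10, by 0.28, 0.32, 0.52 and 0.71 on the log2 scale, where TMEM70 was not called without normal PM10 replicate 1 (-0.22) or inflamed PM10 replicate 1 (-0.26) and UQCC3 not without normal PM10 replicate 2 (-0.26) or inflamed PM10 replicate 1 (-0.25). BCS1L, which inserts the Rieske protein, fell with PM10 (-0.65 ± 0.12 SE, limma adjusted p = 0.00219; without PM10 -0.24 ± 0.12 SE, limma adjusted p = 0.124).

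Other RNA moved with the cytokines as well. The 13 epithelial markers, 5 of which were tested, summed to 658 to 667 FPKM in normal hIECs, 614 to 651 with PM10, 356 to 361 in inflamed hIECs and 299 to 317 in inflamed hIECs with PM10, with CDX2, VIL1, MUC2, LYZ, CHGA and KRT20 at 0. The 10 mesenchymal markers, all tested, summed to 4208 to 4248, 3726 to 3735, 4428 to 4475 and 3750.0 to 3783 FPKM in the same order. The 8 neuronal markers, 5 tested and 3 at 0, ELAVL3 and ELAVL4 among them, summed to 199 to 209, 218 to 225, 121 in both inflamed libraries and 134 to 137. The 6 proliferation markers, all tested, summed to 106 to 114, 82.3 to 87.6, 180.2 to 186 and 161 to 163. With the cytokines, in both pairs, KRT8, KRT18 and SOX9 fell and LGR5 rose among the epithelial markers, and SNAP25, STMN2 and TUBB3 fell and SYT1 rose among the neuronal markers. All 6 proliferation markers rose in both, TOP2A, MKI67, CDK1 and BIRC5 among them. Of the mesenchymal markers 4 rose and 4 fell without PM10 (ACTA2 and LUM, and COL3A1 and PDGFRA, among them), and 5 rose and 5 fell with PM10. The part of these cells or states in the changes of the subunit genes was not tested.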

How the data were processed

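RNA-seq was made from 8 libraries of hIECs in 4 groups of 2. Per the labels and the study's methods, libraries were prepared with a TruSeq poly-A kit without strand information, and reads were trimmed with cutadapt, aligned to hg38 with HISAT2 and assembled and quantified with StringTie. The annotation release is not given in the sources used here. The values the authors deposited are FPKM per gene, with 1 table per library, and hold no counts, so that no depth, interval or counting floor can be given.

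Groups came from the sample labels. Values were taken as log2(FPKM + 1), 14206 of 60558 genes reached 1 FPKM in 2 or more libraries and were kept, and limma 3.58.1 (R 4.3.3) with an intensity trend was fitted to all 8 libraries, with 4 comparisons between groups and their interaction. P-values were adjusted by Benjamini-Hochberg within each comparison over all genes tested, with a threshold of 0.05. On simulated data of 14206 genes for inflamed against normal hIECs, 51 of 100 genes changed by 0.5 on the log2 scale and 93 of 100 changed by 1 were called, with 7 unchanged genes called. No other genes were changed there, while 25.9% of genes were called higher and 30.3% lower in the data. The adjustment is stricter when fewer genes change, so these counts do not give the sensitivity of the real comparison. Tables were made in Python 3.11.15 with pandas 2.3.3 and rank correlations with scipy 1.17.1, and matplotlib 3.10.9 drew the plots.

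Positions, exon overlaps and lengths were read from GENCODE release 44 on GRCh38, by gene identifier, and promoter windows and miRNAs from RefSeq on GRCh38.p14. The subunit genes, the lists (assembly factors, regulators of mitochondrial biogenesis, subunits encoded by mitochondrial DNA, TCA cycle enzymes, mitochondrial mass, cytokine response, and epithelial, mesenchymal, neuronal and proliferation markers) and the tests were chosen with earlier results of these data known. Genes named by rule were, in each complex, the one with the highest mean FPKM and those with the highest and lowest log2 fold change in each of the 4 comparisons (2 of each in complex I), those called in the interaction, the paralog pairs, the ATP5MC and SDH genes, ATP5IF1, the NDUFA4 family, the genes left out by the name rule and, of each list, up to 4 with the largest changes among those called. Other subunit genes were named after their values were seen, to account for the genes tested, and some results are not reported here. The alternatives were a pseudocount of 0.1, no filter, a filter of 5 FPKM, median centring, quantile normalization, rescaling without mitochondrial DNA genes, protein-coding genes alone, the compared groups alone, no trend, a replicate block, leaving out each library, and a 2-fold rule.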

Additional observations from a re-analysis of the deposited data

Results flagged for a closer look

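Limma's interaction of PM10 and cytokines called 1 of 79 subunit genes and 1 of 57 assembly factors, both lower (1.27% and 1.75%). Of all genes tested, 4.48% were called lower and 2.11% higher. NDUFS3, of the Q module of complex I, had a log2 interaction of -0.51 (limma adjusted p = 0.0287) and was, with PM10, higher in both libraries of normal hIECs and lower in both of inflamed hIECs. The call of NDUFS3 was lost under 7 of 17 other settings. NDUFAF2, an assembly factor of complex I, was singled out after its values were seen and was not followed under the other settings. It had an interaction of -0.31 (limma adjusted p = 0.0390). It measured 35.2 and 35.2 FPKM in normal hIECs, 35.5 and 37.1 in normal hIECs with PM10, 41.5 and 40.8 in inflamed hIECs, and 33.4 and 34.6 in inflamed hIECs with PM10. Groups of 2 libraries were too small for a check of single libraries against their group.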

How the results depend on the processing

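Of 49 calls of subunit genes followed in the cytokine comparisons, 30 were kept under each of the 18 other settings that gave a value, and 0 of 9 were kept in the PM10 comparisons. No followed call changed direction. With the cytokines without PM10, the 3 subunit genes that rose became 7 with median centring, 6 with quantile normalization, 6 rescaled without mitochondrial DNA genes, 1 with the compared groups alone and 0 under a 2-fold rule, and the 38 that fell became 0 under that rule. With the cytokines and PM10, the 2-fold rule left 0 higher and 1 lower, from 4 and 51. Median centring gave 40 lower in this pair (50.6%, against 36.3% of all genes tested). In the pair without PM10 it gave 38 (48.1%, against 30.5%), so the distance between the pairs depended on scaling. Quantile normalization gave 53 lower with PM10 (67.1%, against 33.5%) and 40 without (50.6%, against 29.4%). With PM10 in normal hIECs, the 1 that rose became 0 with no filter, median centring, quantile normalization, the compared groups alone or no trend. The 3 that fell became 6 with a filter of 5 FPKM and 0 with the compared groups alone, no trend or the 2-fold rule. With PM10 in inflamed hIECs, the 1 that rose became 0 with no filter, the compared groups alone, no trend or the 2-fold rule, and the 9 that fell became 4 with no trend and 0 under the 2-fold rule. The 2-fold rule left 0 in the interaction. The median log2 fold change in the interaction was 0.012 with median centring, from -0.035. Those causes were not tested.

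Leaving out 1 library leaves a group with a lone library, which is assumed to vary like the other groups. It gave 1 to 6 higher and 27 to 41 lower with the cytokines without PM10 (1 without inflamed replicate 1, 6 without normal replicate 1), 3 to 5 and 36 to 53 with PM10, 0 to 1 and 0 to 6 with PM10 in normal hIECs, 0 to 1 and 0 to 12 in inflamed hIECs, and 0 to 2 lower in the interaction, where 0 were higher. With a replicate block, 4 rose and 37 fell with the cytokines without PM10, 5 and 51 with PM10, 1 and 3 with PM10 in normal hIECs, 1 and 7 in inflamed hIECs, and 1 fell in the interaction. The labels do not say whether libraries with the same number shared a culture or day. The correlations of their deviations ran from -0.0015 to 0.0793, and with 2 libraries a group they cannot decide it.

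With 2 libraries a group and no counts, precision rests on the spread over 8 libraries. Over the subunit genes, replicates had a median SD of 0.053 in log2.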

Other observations

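Enzymes of the TCA cycle, which feeds NADH and succinate to the chain, went in both directions with the cytokines. Without PM10, 4 of 13 rose and 2 fell, and with PM10, 5 rose and 4 fell, where 25.9% and 30.3% of all genes tested rose and fell in the first comparison and 25.8% and 39.6% in the other. SUCLG2, a subunit of the succinyl-CoA ligase that makes GTP, measured 8.32 and 6.80 FPKM in normal hIECs, 8.65 and 8.63 with PM10, 15.3 and 13.9 with cytokines, and 14.2 and 14.8 with both, and its log2 fold change was 0.87 without and 0.68 with PM10 (SE 0.091 for each, limma adjusted p = 0.000154 and 0.000403). DLD, DLST and OGDH, which form the 2-oxoglutarate dehydrogenase complex, rose in both comparisons, and IDH3B and IDH3G, subunits of the NAD-linked isocitrate dehydrogenase, fell in both. IDH3G was not called in the first comparison without normal replicate 2 (-0.18), inflamed replicate 1 (-0.22) or inflamed replicate 2 (-0.24).

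Among 13 genes used as marks of mitochondrial mass, 4 rose and 1 fell without PM10 (30.8% and 7.69%, against 25.9% and 30.3% of all genes tested), and 5 rose and 3 fell with PM10 (38.5% and 23.1%, against 25.8% and 39.6%). VDAC1, the main channel of the outer membrane, measured 66.1 and 56.7 FPKM in normal hIECs, 62.1 and 59.03 with PM10, 78.8 and 80.7 with cytokines, and 84.97 and 86.8 with both, with a log2 fold change of 0.38 without and 0.50 with PM10 (SE 0.073 for each, limma adjusted p = 0.00347 and 0.000673). IMMT and CHCHD3, which shape the cristae that hold the respiratory chain, and TOMM40 rose in both comparisons, and PHB2 fell in both. The list summed to 838 and 769 FPKM in normal hIECs, 839 and 809.6 with PM10, 804 and 824 in inflamed hIECs, and 851 and 849 in inflamed hIECs with PM10. The 2 libraries with both treatments were above the other 6, and the other groups overlapped with the normal libraries.

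Of 12 regulators of mitochondrial biogenesis, 9 were tested. Without PM10, GABPB1 and TFB1M rose and POLRMT, the mitochondrial RNA polymerase, fell. With PM10, TFB1M and TFB2M rose and GABPA, POLRMT and PPRC1 fell. Of the 9, 22.2% rose and 11.1% fell without PM10, against 25.9% and 30.3% of all genes tested. With PM10 the shares were 22.2% and 33.3%, against 25.8% and 39.6%, so none was above that of all genes. POLRMT measured 8.30 and 8.07 FPKM in normal hIECs, 9.78 and 10.1 with PM10, 6.72 and 6.48 with cytokines, and 7.31 and 6.86 with both, and its log2 fold change was -0.27 without and -0.44 with PM10 (SE 0.060 for each, limma adjusted p = 0.0063 and 0.000473). GABPB1 was not called without normal replicate 2 (0.37) or inflamed replicate 2 (0.33) in the first comparison, nor PPRC1 without normal PM10 replicate 2 (-0.26), inflamed PM10 replicate 1 (-0.31) or inflamed PM10 replicate 2 (-0.30) in the other.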
